A study of Homo sapiens with 8 samples.

Results

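The 10 enzymes CAD, UMPS, PPAT, PAICS, GART, ATIC, IMPDH1, IMPDH2, NME1 and CTPS1 build purine and pyrimidine nucleotides, and their transcripts were followed in DAOY cells, an established human medulloblastoma line, with and without a stable MXD3 transgene. MXD3 belongs to the MXD family of proteins of repressors, which compete with MYC for the shared partner MAX. The members were every probe whose gene symbol was 1 of these 10 names, which gave 14 probes among 22184 and 10 genes among 16578. Symbols were those of the platform annotation, updated from RefSeq. These cells were 5 numbered stable lines with the plasmid pHM6-MXD3, set against 2 numbered stable lines with the pHM6 vector only and 1 sample of parental DAOY cells without a plasmid. Both kinds of stable line were selected and kept in G418 at 800 µg/ml, per the labels' protocols. RNA of each went onto 1 Illumina bead array. The labels name no promoter for the transgene and do not say whether a line was a clone or a separate culture, and each p-value is therefore relative to the spread of these arrays, which may be technical.

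Purine rings are assembled stepwise on ribose phosphate until inosine monophosphate (IMP) is made, from which separate branches lead to the adenine and guanine nucleotides. Pyrimidine rings are closed first and joined to ribose phosphate afterwards, giving uridine monophosphate (UMP), from which uridine and cytidine nucleotides follow. Dividing cells draw on both pathways for RNA and DNA, and many of the genes are known targets of MYC, which binds with MAX to the DNA sequence CACGTG, the canonical E-box.

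That E-box was searched for on both strands of the RefSeq promoter windows (GRCh38.p14), which run from 250 bases before to 50 bases after an annotated start. The sequences are shown because MXD and MYC proteins share this motif with MAX. Windows were found for 9 of the 10 genes, all but IMPDH2. Of their 14 windows 4 held the motif, 1 each for PPAT, PAICS, ATIC and NME1, and 7.26% of the 35116 windows in the table did. By gene, 4 of the 9 had it, against 8.78% of 27305 genes. A match describes letters in a window, and binding was not measured here. The PPAT start and 1 of the annotated PAICS starts lie close together on opposite strands of chromosome 4, so that a single E-box lies in both windows. It sits at bases -182 to -177 from the PPAT start and at bases 41 to 46 from that PAICS start. PAICS has 3 windows, of which only this 1 held the motif. ATIC has a motif at bases -46 to -41 and another at 30 to 35, and NME1 has it at 35 to 40. The motif stands in capitals in the following stretches, each read 5′ to 3′ on the strand of its gene.
PPAT, chr4:56435780-56435809, minus strand: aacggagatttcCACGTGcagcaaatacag
ATIC, chr2:215311976-215312055, plus strand: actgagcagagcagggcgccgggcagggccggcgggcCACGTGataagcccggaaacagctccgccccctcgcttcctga
ATIC, chr2:215312076-215312105, plus strand: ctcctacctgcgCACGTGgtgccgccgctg
NME1, chr17:51153581-51153608, plus strand: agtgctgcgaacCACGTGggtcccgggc

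Array mean intensity lay between 1346 and 1797, and between 60.5% and 64.0% of an array's probes were detected (detection p-value below 0.05). Of 12 neural markers, 7 were detected on all 8 arrays (VIM, SOX2, PAX6, OTX2, MAP2, TUBB3 and NCAM1) 4 on none (NES, ZIC1, ATOH1 and SYP) and GFAP on 1. Among 8 markers of other cell types, KRT8 was detected on all 8 arrays, CD3E on 7, PTPRC on 5, EPCAM on 3, PECAM1 and VWF on 1 each, and ALB and DES on none. Of the 4 that could be tested, CD3E lay above every comparison array in all 5 MXD3 lines, where 3.84% of all genes did so. It was dim, at 5.41 to 6.30 on the log2 scale over all arrays. The difference was 0.43 ± 0.15 against vector and parental cells (limma adjusted p = 0.346). PTPRC, EPCAM and KRT8 differed by -0.55 ± 0.25, -0.43 ± 0.18 and -0.14 ± 0.20 with overlapping groups, and the part of these markers in the results was not tested. The MXD3 probe read 7.47, 7.22, 6.98, 8.08 and 6.18 on the log2 scale in MXD3 lines 1 to 5, against 6.93 and 6.71 with the vector and 6.59 in parental cells. MXD3 line 5 therefore lay below all 3 comparison arrays, and it is named by its label throughout. No source used here says whether the probe reads the transgene. MYC was also among the 3.84% of genes that were higher in every MXD3 line. It read 12.40 to 12.94 against 11.98 to 12.19 in vector and parental cells, a difference of 0.55 ± 0.15 with a limma adjusted p of 0.288.

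Most of the synthesis enzymes, 8 of the 10, averaged lower in MXD3 lines than with the vector alone, and 8 averaged lower than in vector and parental cells together, but none passed the test. The median difference over the 10 genes was -0.24 on the log2 scale against the vector lines and -0.22 against vector and parental cells, where the median of all 12162 genes tested was 0.00 in both. Across all genes 49.4% and 49.5% had lower means. In limma 0% of all genes, and 0 of the 10 enzymes, had an adjusted p below 0.05 in either comparison. At an unadjusted p below 0.05 the fits held 942 genes against the vector lines and 1424 against vector and parental cells. In the downward direction those were 3.91% and 5.57% of all genes. Against the vector lines 2 enzymes, IMPDH2 and NME1, were among them, and against vector and parental cells 3, with ATIC added. Without MXD3 line 5, 8 and 7 enzymes averaged lower, the medians were -0.24 and -0.22, and 1 and 2 enzymes had an unadjusted p below 0.05 in the downward direction. Over all genes 937 and 1326 were then below that threshold in either direction. Without vector line 2 both medians were -0.24. Against vector and parental cells 1 enzyme then had an unadjusted p below 0.05 in the downward direction. In that fit 1109 of all genes were below 0.05 in either direction. In bulk RNA a smaller number of cells expressing a gene and less RNA per cell cannot be told apart.

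Separation of the arrays was also read without a model. Every MXD3 array lay below both vector arrays for PPAT, IMPDH2 and NME1, 3 of the 10 enzymes, where 6.62% of all genes did so. Every MXD3 array lay below the vector and parental arrays for IMPDH2 and NME1, 2 of the 10, where 4.14% of all genes did so. Without vector line 1 these counts were 5 and 4, with fewer arrays to lie below, and with each array centred on its median 2 and 1. The share of all genes was not computed for these settings. The plot of log2 intensity by array shows both the 2 separated genes and the overlap of the other 8. Intensities of different probes depend on the probe and are not set against each other.

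**Figure D1:**
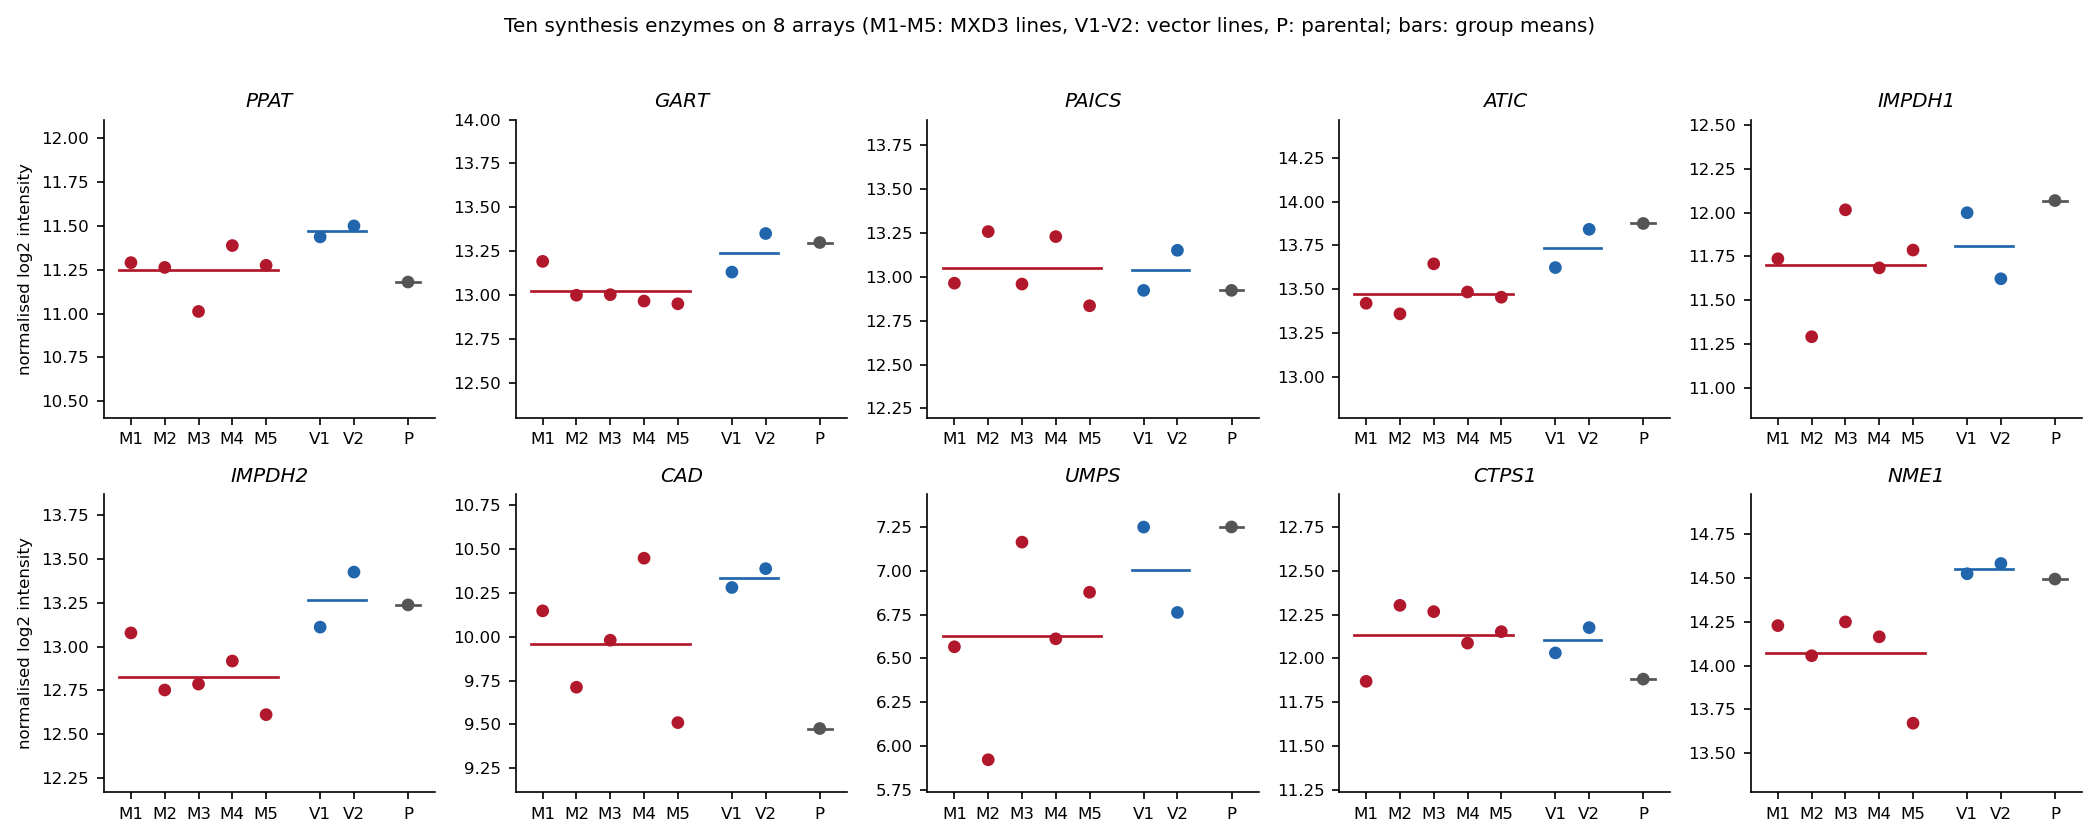
Normalised log2 intensity (vertical axes) of the 10 synthesis enzymes on the 8 arrays, with MXD3 lines left, vector lines in the middle and parental cells right. Points are arrays and horizontal bars are group means. All 5 MXD3 points lie below the vector and parental points for IMPDH2 and NME1.

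**Figure D2:**
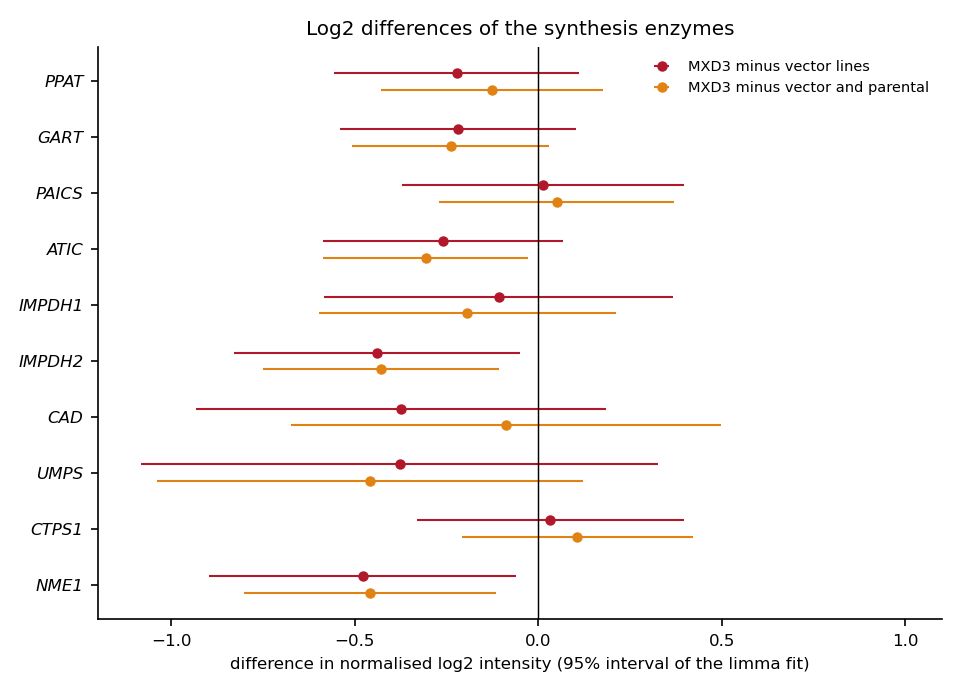
Log2 difference (horizontal axis) of each synthesis enzyme in the MXD3 lines, minus the vector lines (red) and minus vector and parental cells together (orange), with 95% intervals of the limma fit. Points lie left of 0 for 8 of the 10 genes in both comparisons.

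None of the 4 enzymes on the way to IMP had all MXD3 lines apart from both vector and parental cells. PPAT (chromosome 4, 56393362 to 56435615) catalyses the committed step, the transfer of an amino group to phosphoribosyl pyrophosphate. On the log2 scale its intensity was 11.29, 11.26, 11.01, 11.39 and 11.28 in MXD3 lines 1 to 5, against 11.44 and 11.50 with the vector and 11.18 in parental cells. All MXD3 arrays were below both vector arrays, but 4 of the 5 lay above the parental array. The difference was -0.22 ± 0.15 (SE) against the vector lines (limma adjusted p = 0.735) and -0.13 ± 0.14 against vector and parental cells (limma adjusted p = 0.742). The second value was -0.068 without MXD3 line 3 and -0.063 without vector line 2.

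GART (chromosome 21, 33503931 to 33542893) encodes a trifunctional protein that catalyses several of the middle steps. Its brightest probe read 13.19, 12.999, 13.002, 12.97 and 12.95 in MXD3 lines 1 to 5, against 13.13 and 13.35 with the vector and 13.30 in parental cells. MXD3 lines 2 to 5 lay below all 3 comparison arrays and MXD3 line 1 lay among them. GART differed by -0.24 ± 0.12 against vector and parental cells (limma adjusted p = 0.467) and by -0.22 ± 0.14 against the vector lines (limma adjusted p = 0.728). Against vector line 1 alone it was -0.11.

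GART had 3 probes, all detected on all 8 arrays, and the other 2 carried a different RefSeq transcript accession (NM_175085, where the brightest carried NM_000819). Both were highest in parental cells, at 11.82 and 7.22 log2 units. The first of them read 11.37, 11.15, 11.30, 11.09 and 11.14 in MXD3 lines 1 to 5 and 11.14 and 11.46 in the vector lines, so that these groups overlapped. In the fit over 13783 probes the 2 differed from the vector lines by -0.09 ± 0.16 and -0.03 ± 0.19, and from the parental array by -0.61 ± 0.21 and -0.62 ± 0.25, with limma adjusted p of 0.282 and 0.359 for the parental comparison. The vector lines differed from the parental array by -0.52 ± 0.23 and -0.58 ± 0.28 on these probes.

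PAICS (chromosome 4, 56410507 to 56464578) carries out the carboxylation and the aspartate addition that follow. It read 12.96, 13.26, 12.96, 13.23 and 12.84 in MXD3 lines 1 to 5, against 12.92 and 13.15 with the vector and 12.92 in parental cells. The groups overlapped, with MXD3 line 5 the lowest and MXD3 lines 2 and 4 the highest of the 8 arrays. The difference was 0.01 ± 0.17 against the vector lines, with a 95% interval of -0.37 to 0.40 (limma adjusted p = 0.989), and 0.05 ± 0.14 against vector and parental cells.

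ATIC (chromosome 2, 215312059 to 215368592) catalyses the last pair of reactions, which close the ring and yield IMP. It read 13.42, 13.36, 13.64, 13.48 and 13.45 in MXD3 lines 1 to 5, against 13.62 and 13.84 with the vector and 13.88 in parental cells. Lines 1, 2, 4 and 5 lay below all 3 comparison arrays and line 3 lay just above vector line 1. Mean ATIC was 13.47 ± 0.11 (SD, n = 5) in MXD3 lines, against 13.78 ± 0.14 (SD, n = 3) in vector and parental cells. The difference was -0.31 ± 0.12 (unadjusted p = 0.0338, limma adjusted p = 0.378), a ratio of 0.808. Against the vector lines it was -0.26 ± 0.14 (limma adjusted p = 0.700), and -0.15 without vector line 2.

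IMP dehydrogenase takes IMP into the guanine branch and limits the rate of guanine nucleotide synthesis, and it has 2 isoforms encoded by separate genes. IMPDH2 (chromosome 3, 49024325 to 49029398), the isoform that is raised in proliferating cells, read 13.08, 12.75, 12.79, 12.92 and 12.61 in MXD3 lines 1 to 5, against 13.11 and 13.43 with the vector and 13.24 in parental cells. No MXD3 array reached a comparison array, but the gap was narrow, between 13.08 in MXD3 line 1 and 13.11 in vector line 1. Means were 12.83 ± 0.18 (SD, n = 5) in MXD3 lines and 13.26 ± 0.16 (SD, n = 3) in vector and parental cells. IMPDH2 differed by -0.43 ± 0.14 (unadjusted p = 0.0142, limma adjusted p = 0.319), a ratio of 0.743. Against the vector lines alone the difference was -0.44 ± 0.17 (unadjusted p = 0.0317, limma adjusted p = 0.609), and -0.28 without vector line 2.

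IMPDH1 (chromosome 7, 128392277 to 128409982) is the other isoform. Its measured probe read 11.74, 11.29, 12.02, 11.68 and 11.79 in MXD3 lines 1 to 5, against 12.00 and 11.62 with the vector and 12.07 in parental cells. The groups overlapped, with MXD3 line 2 lowest and parental cells highest. The difference was -0.19 ± 0.18 against vector and parental cells (limma adjusted p = 0.699) and -0.11 ± 0.21 against the vector lines (limma adjusted p = 0.908), which became 0.08 without vector line 1. Without MXD3 line 2 the values were -0.091 and -0.0051, and without vector line 2 they were -0.33 and -0.30. A second IMPDH1 probe was detected on 0 arrays, with detection p-values from 0.149 to 0.953, and was not tested.

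CAD (chromosome 2, 27217369 to 27243943) encodes the multifunctional protein of the opening steps of pyrimidine synthesis and is a textbook MYC target. It read 10.15, 9.71, 9.98, 10.45 and 9.51 in MXD3 lines 1 to 5, against 10.28 and 10.39 with the vector and 9.48 in parental cells. MXD3 line 4 was the highest of all arrays and parental cells the lowest, and the MXD3 lines spread over nearly the whole range of the comparison cells. CAD differed by -0.37 ± 0.24 against the vector lines (limma adjusted p = 0.731) and by -0.09 ± 0.26 against vector and parental cells (limma adjusted p = 0.913). That value was 0.02 without MXD3 line 5, 0.03 without vector line 1 and 0.08 without vector line 2. The vector lines themselves exceeded the parental array by 0.86 ± 0.36 (unadjusted p = 0.0417, limma adjusted p = 0.690), 1.81 times its level.

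UMPS (chromosome 3, 124730452 to 124749273) completes UMP. It was dim, with deposited intensities of 206 to 302 over all arrays, though detected on all 8. It read 6.57, 5.92, 7.16, 6.61 and 6.88 in MXD3 lines 1 to 5, against 7.25 and 6.76 with the vector and 7.25 in parental cells. Lines 1, 2 and 4 lay below all comparison arrays, and lines 3 and 5 lay among them. UMPS differed by -0.46 ± 0.26 against vector and parental cells (limma adjusted p = 0.505) and by -0.38 ± 0.31 against the vector lines (limma adjusted p = 0.782). These values were -0.20 and -0.16 without background correction and -0.28 and -0.20 without MXD3 line 2. The second was -0.13 without vector line 1 and -0.62 without vector line 2.

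CTPS1 (chromosome 1, 40979696 to 41012565) converts uridine to cytidine triphosphate. It read 11.87, 12.30, 12.27, 12.09 and 12.15 in MXD3 lines 1 to 5, against 12.03 and 12.18 with the vector and 11.88 in parental cells. The groups overlapped, and CTPS1 and PAICS were the 2 enzymes whose MXD3 mean was not lower. CTPS1 differed by 0.11 ± 0.14 against vector and parental cells, with a 95% interval of -0.21 to 0.42 (limma adjusted p = 0.793), and by 0.03 ± 0.16 against the vector lines (limma adjusted p = 0.966). The first value was 0.064 without MXD3 line 2 and 0.18 without vector line 2.

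NME1 (chromosome 17, 51153559 to 51162168) is a nucleoside diphosphate kinase, which charges diphosphates to triphosphates at the end of both pathways. Its brighter probe read 14.23, 14.06, 14.25, 14.16 and 13.67 in MXD3 lines 1 to 5, against 14.52 and 14.58 with the vector and 14.49 in parental cells. All MXD3 arrays lay below all comparison arrays, and MXD3 line 5 was lowest. Means were 14.07 ± 0.24 (SD, n = 5) in MXD3 lines and 14.53 ± 0.05 (SD, n = 3) in vector and parental cells. NME1 differed by -0.46 ± 0.15 on this probe (unadjusted p = 0.0142, limma adjusted p = 0.319), a ratio of 0.727, and by -0.48 ± 0.18 against the vector lines (unadjusted p = 0.0294, limma adjusted p = 0.608).

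A second NME1 probe with the same transcript accession, NM_198175, gave the larger difference. It read 9.86, 9.45, 9.70, 9.16 and 8.92 in MXD3 lines 1 to 5, against 10.44 and 10.75 with the vector and 10.30 in parental cells. The groups were again apart, MXD3 line 5 was again lowest, and the deposited intensities were 614 to 1288 in MXD3 lines against 1320 to 1732 in vector and parental cells. In the fit over all 13783 probes it differed by -1.08 ± 0.22 from vector and parental cells (unadjusted p = 0.000748, limma adjusted p = 0.269), a ratio of 0.474. Against the vector lines it differed by -1.18 ± 0.26 (unadjusted p = 0.00161, limma adjusted p = 0.586), a ratio of 0.442. At an unadjusted p below 0.05 the downward share of all probes was 5.67% and 3.83% in these 2 fits, and 0% had an adjusted p below 0.05. A mean over both NME1 probes gave -0.77 and -0.83. Without MXD3 line 5 the second probe differed by -0.95 from vector and parental cells and by -1.05 from the vector lines. The brighter probe then differed by -0.36 and by -0.38. The probes' own sequences were not used here, so which transcripts each reads was not tested.

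NME2, the neighbouring gene that encodes a closely related kinase, was looked at after its values were seen. It read 14.12, 13.77, 14.07, 13.86 and 13.51 in MXD3 lines 1 to 5, against 13.98 and 14.06 with the vector and 14.26 in parental cells. Its groups overlapped, with MXD3 line 5 again lowest, and it differed by -0.23 ± 0.16 from vector and parental cells (limma adjusted p = 0.603). The plot of the NME1 and IMPDH2 probes by array shows the 2 NME1 probes side by side.

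**Figure D3:**
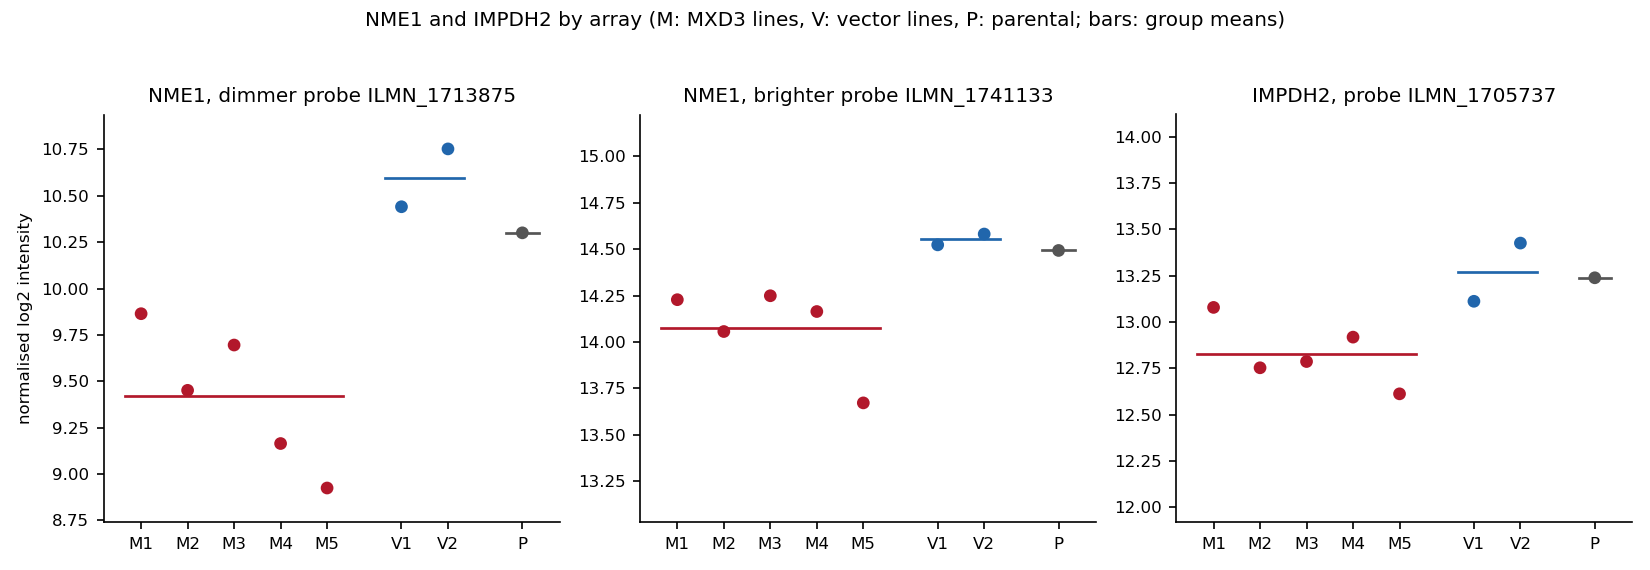
Normalised log2 intensity (vertical axes) of both NME1 probes and of IMPDH2 on each array, MXD3 lines left, vector lines in the middle and parental cells right. Points are arrays and bars are group means. The dimmer NME1 probe lies between 8.92 and 9.86 in MXD3 lines, against 10.30 to 10.75 in vector and parental cells.

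The 10 enzymes did not move as a block across arrays. Expressed as the mean over the genes of log2 intensity less the mean of that gene, the set stood at -0.04, -0.20, 0.02, 0.01 and -0.18 in MXD3 lines 1 to 5, against 0.14 and 0.19 with the vector and 0.08 in parental cells. MXD3 lines 2 and 5 were low and lines 1, 3 and 4 lay near 0, all 5 below the comparison arrays. The list of other nucleotide kinases, described below, was separated in the same way. MXD3 line 5 was the lowest array for 4 enzymes and MXD3 line 2 for 3, while MXD3 line 2 was also the highest array for 2, PAICS and CTPS1. Vector line 2 was the highest for 4 enzymes and parental cells for 3.

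Correlation over the 8 arrays, which share the normalisation and the group structure, describes which enzymes ran together. NME1 had the closest profile to the mean of the other 9 enzymes, with r = 0.85, followed by IMPDH2 at 0.78, ATIC at 0.75 and GART at 0.64. CAD, UMPS, IMPDH1 and PPAT lay between 0.27 and 0.34. PAICS at -0.16 and CTPS1 at -0.41 were the only enzymes with a negative r, and that of PAICS was weak. Among 12150 other genes the profiles most like the mean of the 10 were those of PDF at r = 0.98, COG2 at 0.96, IFRD2 at 0.95, AKAP1 at 0.95 and HLA-DMB at 0.94. Their r is high partly because the 5 were picked as the highest. PDF, a mitochondrial peptide deformylase, read 6.66, 6.15, 6.77, 6.61 and 6.26 in MXD3 lines 1 to 5, against 7.17 and 7.47 with the vector and 6.88 in parental cells, with the groups apart. The mean of the 10 enzymes was itself apart in this way, so a gene picked for likeness to it tends to be apart too. Of all genes 4.14% lay below in every MXD3 array.

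**Figure D4:**
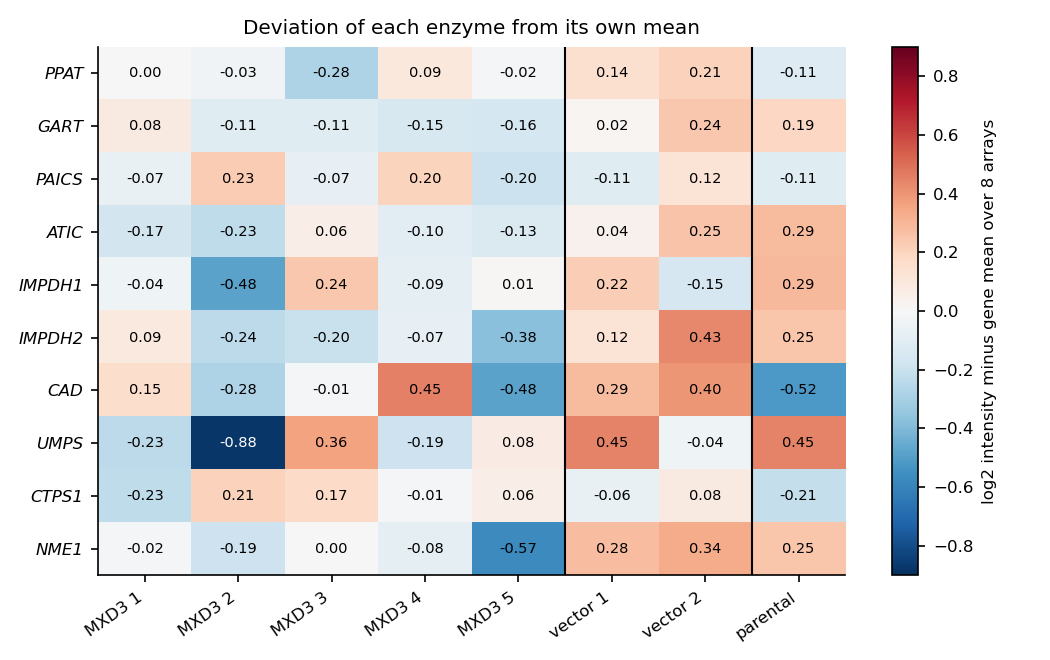
Log2 intensity less the gene's own mean on the 8 arrays (colour and printed value) for the 10 synthesis enzymes in rows and the arrays in columns, MXD3 lines left. Blue is below the gene's mean. MXD3 line 2 lies below the gene's mean for 8 enzymes, while PAICS and CTPS1 are highest in MXD3 line 2.

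Proliferation markers were read on the same arrays. The mean over 12 of them was 0.05, 0.01, 0.10, 0.02 and -0.21 in MXD3 lines 1 to 5, against 0.01 and 0.12 with the vector and -0.10 in parental cells. MXD3 line 5 was lowest here as it was near-lowest for the synthesis enzymes, whereas MXD3 line 2, low for the enzymes, was near 0. Of the 12 markers 5 had lower and 7 higher means in MXD3 lines than in vector and parental cells, with a median of 0.03. Compared with the vector lines alone, 8 had lower and 4 higher means, with a median of -0.07. PLK1, a mitotic kinase, had the smallest p, at -0.38 ± 0.18. The part of these markers in the enzymes' values was not tested.

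Of the other enzymes of de novo synthesis, 8 of 9 listed were measured, and 6 had lower and 2 higher means against vector and parental cells, with a median of -0.14. Against the vector lines the split was 4 lower and 4 higher with a median of 0.00. The parental array was the highest for this list, at 0.22 above its gene means, against -0.10 to 0.00 in MXD3 lines and -0.01 and 0.02 in the vector lines. ADSL, adenylosuccinate lyase, which acts between PAICS and ATIC, read 13.87, 14.12, 13.90, 13.70 and 13.90 in MXD3 lines 1 to 5, against 14.16 and 14.22 with the vector and 14.21 in parental cells. The ADSL groups were apart by a small gap, with a difference of -0.29 ± 0.13 (unadjusted p = 0.0419, limma adjusted p = 0.406). PFAS, which acts ahead of PAICS in the purine pathway, differed by -0.29 ± 0.16 from vector and parental cells. PRPS1, which supplies phosphoribosyl pyrophosphate, differed by -0.21 ± 0.15 there, but by -0.03 ± 0.13 from the vector lines alone. Its parental array was the highest, at 12.09 against 11.51 and 11.56 with the vector.

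Of the other nucleotide kinases 10 of 13 listed were tested, and 8 had lower and 2 higher means in both comparisons, with medians of -0.18. Relative to the gene means, the list stood at -0.14 to -0.0008 in MXD3 lines. It stood at 0.11 and 0.12 with the vector and 0.11 in parental cells. NME4, a mitochondrial relative of NME1, read 12.21, 12.25, 12.20, 12.45 and 12.09 in MXD3 lines 1 to 5, against 12.47 and 12.61 with the vector and 12.78 in parental cells. Its groups were apart, with a difference of -0.38 ± 0.13 (unadjusted p = 0.0161, limma adjusted p = 0.330). AK4, a mitochondrial adenylate kinase, differed by -0.54 ± 0.20 (limma adjusted p = 0.358) and NME6 by -0.25 ± 0.13, both with overlapping groups. Against the vector lines alone AK4 differed by -0.71 ± 0.21 (unadjusted p = 0.00982, limma adjusted p = 0.587) and NME6 by -0.31 ± 0.15. For both genes every MXD3 array lay below both vector arrays, where 6.62% of all genes did so.

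Nucleotide salvage, which recycles bases and nucleosides, split differently, with 3 of 11 genes lower and 8 higher and a median of 0.03 against vector and parental cells. APRT, which salvages adenine, was the exception by unadjusted p. It read 10.10, 9.72, 10.08, 9.92 and 9.70 in MXD3 lines 1 to 5, against 10.28 and 10.20 with the vector and 10.74 in parental cells, so the groups were apart. APRT differed by -0.50 ± 0.17 (unadjusted p = 0.0142, limma adjusted p = 0.319). The deoxynucleoside kinases DCK and TK1 differed by 0.25 ± 0.16 and 0.30 ± 0.22.

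Deoxynucleotide synthesis held 7 tested genes, 4 lower and 3 higher, with a median of -0.04 and none at an unadjusted p below 0.05. RRM1, a ribonucleotide reductase subunit, differed by 0.20 ± 0.16, TYMS, thymidylate synthase, by 0.16 ± 0.12 and SAMHD1, which degrades deoxynucleotides, by -0.17 ± 0.22. Of 7 folate genes, which supply one-carbon units to the purine ring, 4 were lower and 3 higher with a median of -0.14. FPGS differed by 0.45 ± 0.24, MTHFD1 by -0.27 ± 0.17 and MTHFD1L by 0.31 ± 0.19. Of 13 tested breakdown genes 6 were lower and 7 higher with a median of 0.09, where NT5C differed by -0.24 ± 0.17, NT5C2 by 0.13 ± 0.12 and CDA, cytidine deaminase, by 0.32 ± 0.32. No list held a gene with an adjusted p below 0.05 in limma.

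**Figure D5:**
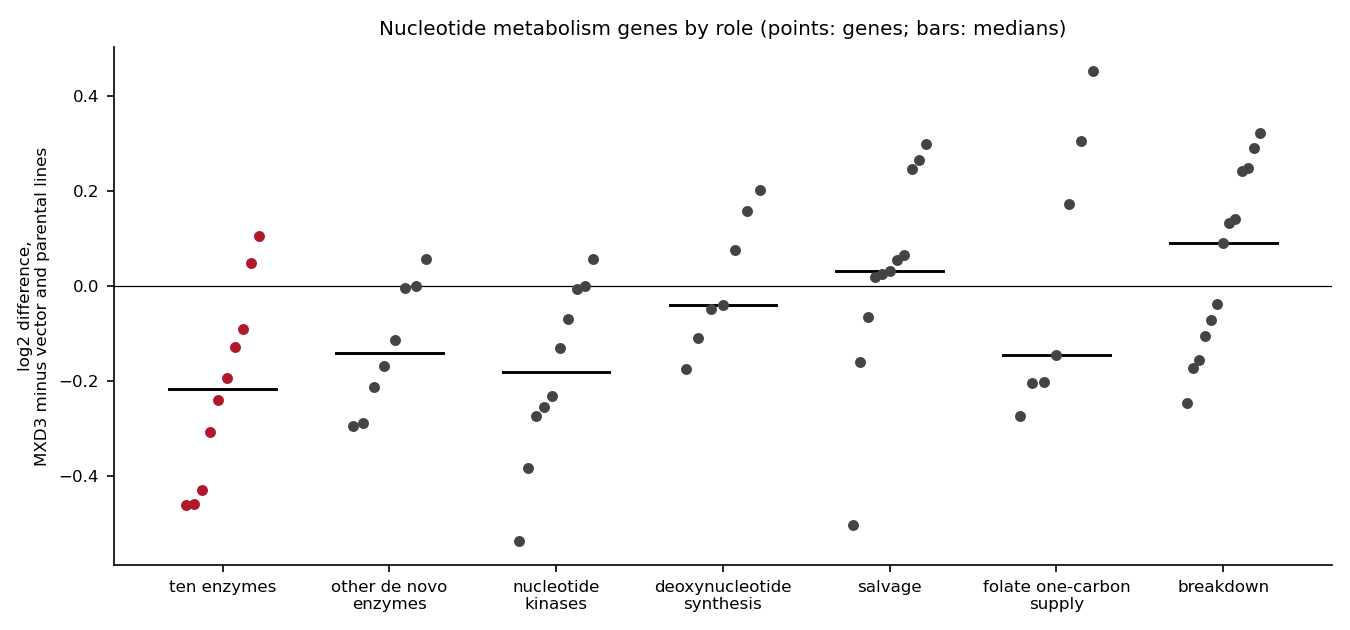
Log2 difference of single genes (points, vertical axis), MXD3 lines minus vector and parental cells, for the 10 synthesis enzymes (red) and the related lists (grey) along the horizontal axis, with the median of each list as a bar. Medians run from -0.22 for the 10 enzymes to 0.09 for breakdown genes, and the lists overlap.

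Against the single parental array, assumed in the fit to vary like the other groups, 6 enzymes had lower and 4 higher means in MXD3 lines, with a median of -0.32. UMPS had the lowest value, -0.62 ± 0.40, and CAD the highest, 0.48 ± 0.32. Of all genes 0.00822% had an adjusted p below 0.05 in limma, none of them among the 10 enzymes. In the fit of single probes, the 2 further GART probes differed by -0.61 ± 0.21 and -0.62 ± 0.25, and the second NME1 probe by -0.88 ± 0.34. In the vector lines 4 enzymes had lower and 6 higher means than in parental cells, with a median of 0.04. NME1 and IMPDH2 differed there by 0.06 ± 0.27 and 0.03 ± 0.25, with vector and parental values close together. CAD had the highest value in that comparison, 0.86 ± 0.36, and again 0.00822% of all genes and none of the 10 enzymes passed the adjusted threshold.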

How the data were processed

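RNA of 8 DAOY samples was measured on Illumina bead arrays. The authors deposited a non-normalized table of intensity per probe on a linear scale with a detection p-value beside each, per the file headers, and a series matrix whose intensity values share a mean of 1363 on every array and run below 0. The submitters' processing notes name BeadStudio. From the non-normalized table, neqc (limma 3.58.1, R 4.3.3) inferred the negative controls from detection p-values, corrected the background, normalised by quantiles and took logs after an offset of 16. Log2 values were computed here from the deposited intensities. Probes detected on at least 2 arrays were kept, and the probe with the highest mean stood for its gene, leaving 12162 genes. Symbols came from the platform annotation, replaced by the RefSeq symbol of the same Entrez gene where there was one, with 2469 probes unnamed and none with several symbols. Locations and promoter windows came from RefSeq (GRCh38.p14).

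Differences are log2, with standard errors, from lmFit and eBayes, two-sided, at an adjusted p of 0.05 (Benjamini-Hochberg, all genes). One fit held MXD3, vector and parental groups and another MXD3 against vector and parental cells together. Probes were also fitted singly. The number of arrays limits the precision. All 10 enzymes are described, with up to 3 genes of each related list by smallest p, MXD3 and MYC, and the 5 genes with the most similar profile. MAX, which the rule also takes, read 8.70 to 9.12 in MXD3 lines and 9.10, 9.13 and 9.86 in vector line 1, vector line 2 and parental cells. It differed by -0.51 ± 0.19 from vector and parental cells (limma adjusted p = 0.360) and by -0.26 ± 0.16 from the vector lines. The vector lines themselves differed from the parental array by -0.74 ± 0.23. Members and lists were chosen with earlier results of these data known.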

Additional observations from a re-analysis of the deposited data

Results flagged for a closer look

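Among 43 gene and probe sets of 5 MXD3 arrays checked for a single array far from the others, 2 had one, and chance gives about 1 in 20. GART in MXD3 line 1 read 13.19 log2 units, while the other MXD3 lines read 12.95 to 13.002, so that its gap took 0.784 of the range, above the critical value of Dixon's test. PLK1 in MXD3 line 5 read 9.13, while the other MXD3 lines read 9.69 to 9.90, a gap of 0.724 of the range.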

How the results depend on the processing

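No enzyme had an adjusted p below 0.05 under any alternative run. Against the vector lines the median over the 10 enzymes stayed between -0.32 and -0.21, and 8 to 10 averaged lower. Enzymes lower at an unadjusted p below 0.05 numbered 1 with median centring (NME1), 1 with the replicate block and 1 to 3 with an MXD3 line left out. Over all genes, 916 with median centring and 776 to 1252 with an MXD3 line left out were below that threshold in either direction. Under the replicate block the 1 enzyme was UMPS, at -0.76 (unadjusted p = 0.0262) against -0.38 without the block. IMPDH2 and NME1 had unadjusted p of 0.262 and 0.146 in limma under the block. Leaving out a vector line leaves a single vector array, so only differences are given for it. Without vector line 1 IMPDH2 and NME1 were at -0.60 and -0.51, and without vector line 2 at -0.28 and -0.45. Enzymes with every MXD3 array below numbered 3 to 5 with an array left out. Fewer arrays make this easier, and the share of all genes was not computed. PAICS was -0.0096 with the series matrix values and -0.10 to 0.13 with an array left out. IMPDH1 was -0.30 to 0.080 with an array left out, and CTPS1 -0.018 with the replicate block and -0.040 to 0.10. Against vector and parental cells, leaving out an array gave 0 to 1 genes called (MAL2, without MXD3 line 1) and 1 to 4 enzymes lower at an unadjusted p below 0.05. Over all genes, 1109 to 1738 were then below that threshold in either direction. Every MXD3 array lay below for 2 to 4 enzymes (1 with median centring), again with no share of all genes computed. CAD was at -0.21 to 0.081 and PAICS at -0.0022 to 0.13 with an array left out. The cause of these changes was not tested. Line numbers 1 and 2 occur in MXD3 and vector lines, but same-numbered deviations correlated at -0.31 and -0.18 across genes, with signs mirrored by construction in a group of 2, so the numbers are not taken as pairs. The replicate block called 0 genes and left 291 at an unadjusted p below 0.05, against 942. Leaving out the parental array gave the values of the 3-group fit by construction. Dim probes such as that of UMPS depend most on the background correction.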
